A study of Saccharomyces cerevisiae with 12 samples.

Results

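The 10 genes described here make phospholipids and their precursor inositol in budding yeast, or control that synthesis. They are INO1, ITR1 and PIS1 of inositol supply and use, CHO1, PSD1, CHO2 and OPI3 of the CDP-diacylglycerol route, CPT1 and EPT1 of the Kennedy route, and the repressor OPI1. Each name matched the symbol of 1 probe in the platform's annotation, so the genes are 10 of the 6388 gene probes on the array. The expression of these genes was followed in wild-type cells growing in medium that a slow-growing deletion strain had used before.

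All measured cells were wild-type BY4742, a haploid laboratory strain of mating type alpha that lacks HIS3, LEU2, LYS2 and URA3. Before harvest they doubled 2 times in filtered synthetic complete medium (2% glucose) from an earlier culture. The earlier culture was a strain deleted for CBF1, NPL3, BUR2 or CHO2, or a wild-type strain, and the resulting media are called cbf1, npl3, bur2, cho2 and wild-type medium. The labels fall into 2 styles, called set 1 (cbf1, npl3 and wild-type medium) and set 2 (bur2, cho2 and wild-type medium), and each of these 6 groups has 2 arrays. Since none of the measured cells carried a deletion of CHO2, the CHO2 gene was intact in the cells grown in cho2 medium as well. Every array carried the sample in 1 dye and a common reference in the other, made from wild-type RNA of a single culture. Array 1 of a group has the sample in Cy3 and array 2 has it in Cy5, so the array number cannot be told apart from the dye. The labels describe 2 independent cultures per medium and the methods describe dye swaps of biological replicates. The paired arrays may therefore be separate cultures or a single RNA labelled both ways, which was not settled, so n counts arrays and the p-values may measure technical spread only.

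Alpha-specific MF(ALPHA)1, MF(ALPHA)2 and STE3 were bright in the samples, with STE3 at 28.8 to 88.5 times its local background. The 5 a-specific genes reached at most 3.25 times background, in STE2. LEU2 and URA3 were at 1.03 to 1.19 times background, whereas LYS2 (1.65 to 3.07) and HIS3 (2.59 to 8.44) were above it, and where in these genes the probes lie is not given in the sources used here. Set 2 was dimmer than set 1, with a median Cy5 signal of 185 to 264 against 327 to 507 per array. Arrays of different media within a set that shared the dye correlated at r = 0.81 to 0.96 over the gene probes, and arrays of the same medium with opposite dyes at r = 0.67 to 0.82. For array 1 of cho2 medium, the deposited log2 column ran opposite to the scanner ratio taken by the labelled dyes (r = -0.91). By its labelled dyes this array correlated at r = 0.72 to 0.96 with the other arrays of set 2, so the labels were followed.

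As background, many but not all enzymes of phospholipid synthesis in yeast are controlled together through a promoter element that the activators Ino2 and Ino4 bind. Opi1 represses these genes when inositol is plentiful and is held outside the nucleus, at the endoplasmic reticulum, when phosphatidic acid accumulates. INO1 is the best known target and serves as a reporter of inositol shortage. A strain without CHO2 makes less phosphatidylcholine by methylation and depends more on choline taken up from its surroundings, which makes cho2 medium the medium of most direct interest for these genes.

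Measurements are given as log2 of sample over reference, the average of the duplicate spots of a probe, where 0 means equal to the reference and 1 means a doubling. Against the reference, 9 of the 10 genes had a mean below 0 over the 12 arrays, and only OPI1 had a mean above it. The median of the 10 means was -0.17, while that of all 6388 probes was -0.0034. PIS1, CHO2, OPI3, CPT1 and EPT1 were below 0 on all 12 arrays, as were 15.1% of all probes, and OPI1 was above 0 on all 12, as were 19.2% of all probes. No test was made against the reference, because it is RNA from 1 culture. The set of 5 genes depended on the processing, since the deposited log2 table left 4 of them below 0 on all 12 arrays (all but CPT1), print-tip loess left 3 (CHO2, OPI3 and EPT1) and median centring left 2 (CHO2 and OPI3). The shares of all probes below 0 on all 12 arrays were 17.7%, 15.6% and 8.83% in the same order. Under each of the 5 processing alternatives, OPI1 remained above 0 on all 12 arrays.

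**Figure D1:**
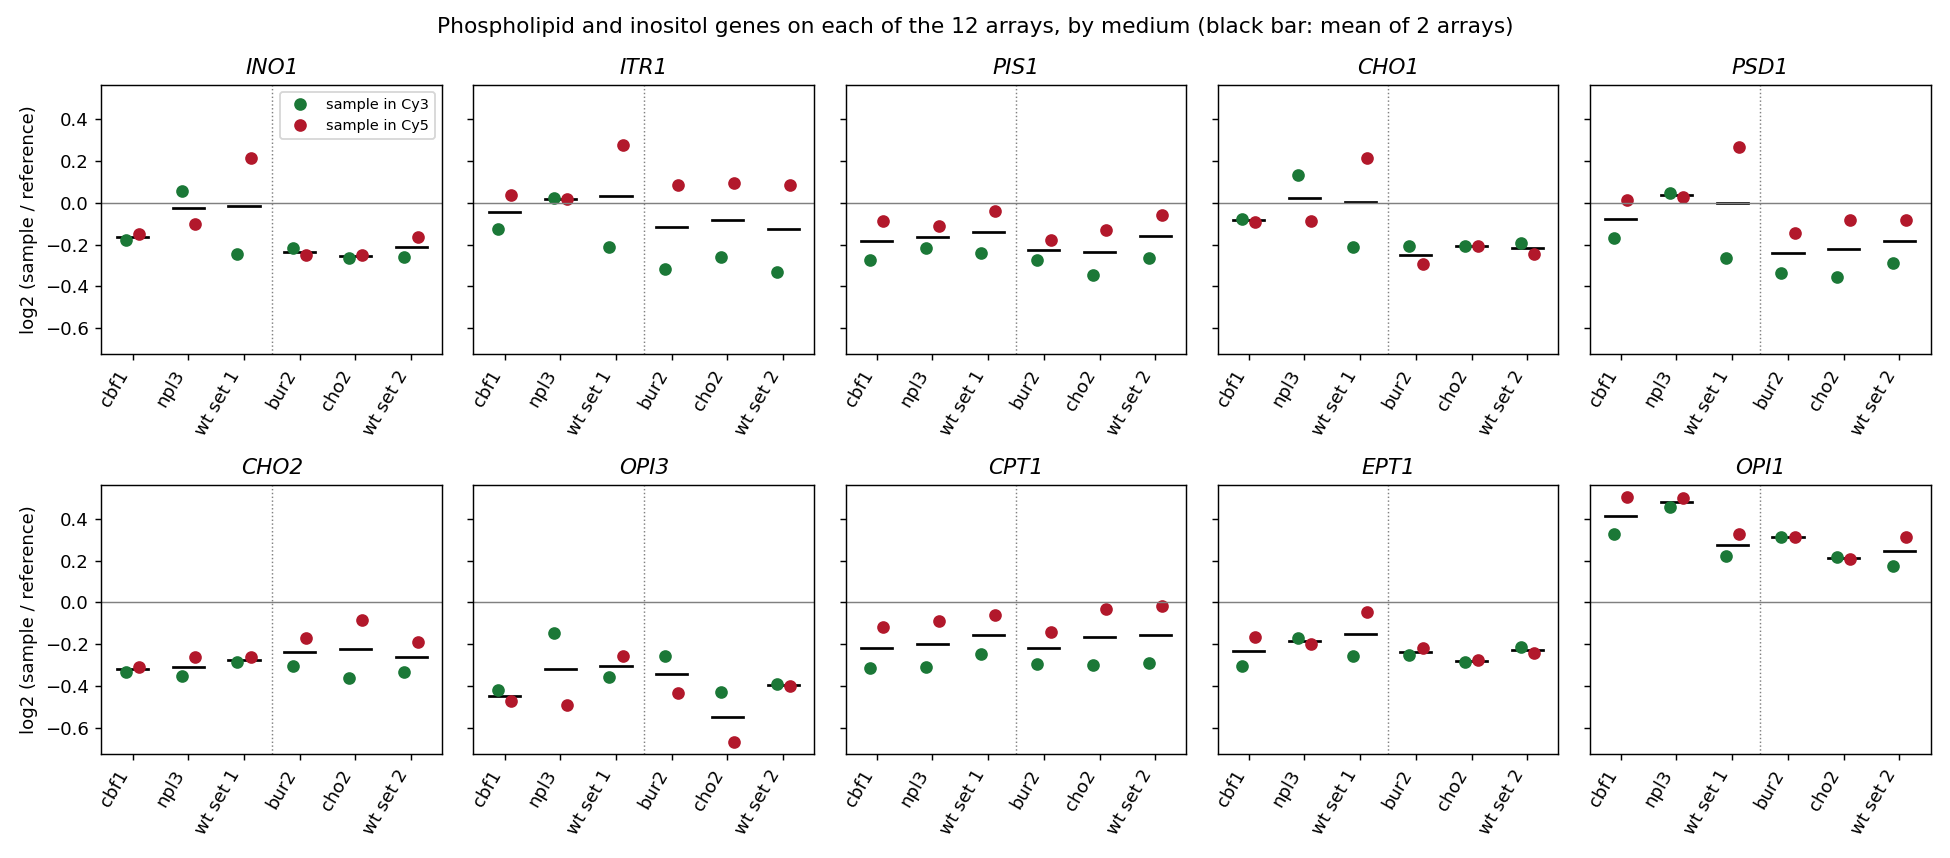
Each panel shows 1 gene, with the 6 media on the x axis (wt, wild-type medium; the dotted line separates set 1 from set 2) and log2 of sample over reference on the y axis; green points are arrays with the sample in Cy3, red points arrays with the sample in Cy5, and black bars the mean of the 2 arrays. OPI1 is the only gene above 0 on all 12 arrays (0.18 to 0.50), and OPI3 has the lowest mean (-0.39).

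Within the inositol genes, INO1 encodes inositol-3-phosphate synthase, which commits glucose 6-phosphate to inositol. In set 1, INO1 read -0.18 and -0.15 in cbf1 medium, 0.056 and -0.10 in npl3 medium, and -0.25 and 0.21 in wild-type medium (arrays 1 and 2). In set 2, it read -0.22 and -0.25 in bur2 medium, -0.26 and -0.25 in cho2 medium, and -0.26 and -0.16 in wild-type medium. The widest gap between arrays of a group was thus in the wild-type medium of set 1, whose 2 arrays lie at the ends of the set. INO1 was also the dimmest of the 10 probes relative to its own background, with sample signals of 2.62 to 3.97 times background in set 1 and 1.77 to 2.29 times in set 2. On 4 of the 12 arrays, all of set 2, the sample signal did not pass 2 times background, and ratios of such dim spots are pulled towards 0 by the background offset. With an offset of 10 in place of 50, the mean of INO1 was -0.24 in place of -0.15.

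ITR1, the main inositol transporter of the plasma membrane, had the mean nearest to 0 of the 10 genes, -0.053 ± 0.19 (SD, n = 12 arrays). It was below 0 on 5 arrays and above 0 on 7, and its arrays separated by dye, with a mean of -0.20 where the sample was in Cy3 and 0.099 where it was in Cy5. PIS1, the phosphatidylinositol synthase that joins inositol to CDP-diacylglycerol, lay between -0.35 and -0.041 with a mean of -0.19, which is 87.9% of the reference.

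In the CDP-diacylglycerol route, CHO1 (phosphatidylserine synthase) resembled INO1 in set 1. It read -0.078 and -0.091 in cbf1 medium, 0.13 and -0.088 in npl3 medium, and -0.21 and 0.22 in wild-type medium. In set 2, all 6 arrays were between -0.29 and -0.19. PSD1, which decarboxylates phosphatidylserine to phosphatidylethanolamine in mitochondria, ranged from -0.26 to 0.26 in set 1, both values again from the wild-type medium, and from -0.35 to -0.081 in set 2.

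CHO2 and OPI3 encode the methyltransferases that turn phosphatidylethanolamine into phosphatidylcholine, CHO2 for the first methylation and OPI3 for the later ones. CHO2 read -0.33 and -0.31 in cbf1 medium, -0.35 and -0.26 in npl3 medium, and -0.28 and -0.26 in wild-type medium of set 1. In set 2, it read -0.30 and -0.17 in bur2 medium, -0.36 and -0.084 in cho2 medium, and -0.33 and -0.19 in wild-type medium. Both the lowest and the highest of the 12 values therefore belong to cho2 medium, with the sample in opposite dyes. The mean of CHO2 was -0.27, or 82.9% of the reference, a mean lower than in all but 2.16% of probes.

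OPI3 had the lowest mean of the 10 genes, -0.39 ± 0.13 (SD, n = 12 arrays), equal to 76.2% of the reference, and only 0.673% of probes had a lower mean. It read -0.42 and -0.47 in cbf1 medium, -0.15 and -0.49 in npl3 medium, and -0.36 and -0.25 in wild-type medium of set 1. In set 2, it read -0.25 and -0.43 in bur2 medium, -0.43 and -0.67 in cho2 medium, and -0.39 and -0.40 in wild-type medium. The value of -0.67 in cho2 medium was the lowest of any of the 10 genes on any array, and the next lowest OPI3 value was -0.49, in npl3 medium.

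The Kennedy route builds phosphatidylcholine and phosphatidylethanolamine from choline and ethanolamine, and CPT1 and EPT1 encode its last enzymes, the cholinephosphotransferase and the ethanolaminephosphotransferase. CPT1 had a mean of -0.18 (88.0% of the reference) and was split by dye more clearly than by medium. The 6 arrays with the sample in Cy3 had a mean of -0.29, and the 6 with the sample in Cy5 had a mean of -0.077. EPT1 had the smallest SD of the 10 genes, 0.069 around a mean of -0.22 (86.0% of the reference), and ranged from -0.30 to -0.048.

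OPI1, the repressor of the pathway, was higher than the reference throughout, with a mean of 0.32 ± 0.11 (SD, n = 12 arrays), or 125% of the reference. It read 0.33 and 0.50 in cbf1 medium, 0.46 and 0.50 in npl3 medium, and 0.22 and 0.33 in wild-type medium of set 1. In set 2, it read 0.31 and 0.31 in bur2 medium, 0.22 and 0.21 in cho2 medium, and 0.18 and 0.31 in wild-type medium. npl3 medium gave the highest mean (0.48) and cho2 medium the lowest (0.21), and 95.8% of probes had a lower mean over the 12 arrays than OPI1. The genes of the activator, chosen after their values were seen, are set beside it. INO4 was above 0 on all 12 arrays, as were 19.2% of all probes, with a mean of 0.27. INO2 was above 0 on 9 of them with a mean of 0.087. Both were dim, with median signals of 3.30 (INO4) and 4.13 (INO2) times background. They belong to 13 measured genes of precursor uptake and regulation, whose means had a median of -0.032. Of these 13, 3 (UME6, INM1 and IRE1) were below 0 on all 12 arrays and 1 (INO4) was above.

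The dye of the sample moved with several of these values. In the limma fit, the dye term passed an adjusted p of 0.05 for 37.7% of all probes and for 5 of the 10 genes. These were ITR1 (0.30 higher in Cy5 than in Cy3, log2), PSD1 (0.23), CPT1 (0.21), PIS1 (0.17) and CHO2 (0.11). INO1 (0.068), EPT1 (0.056), CHO1 (0.0087), OPI1 (0.075) and OPI3 (-0.12) did not pass. Every comparison between media below includes that term and sets equal numbers of both dyes against each other.

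The comparison of cho2 medium with wild-type medium of set 2 asks whether use by a strain impaired in phosphatidylcholine synthesis moved these genes. None of the 10 genes passed an adjusted p of 0.05 in limma, and neither did any of the 6388 probes (0%). At an unadjusted p under 0.05 there were 0 of the 10 genes and 126 probes (1.97%). The largest difference belonged to OPI3, at -0.15 (SE 0.093, 95% interval -0.37 to 0.060, limma adjusted p = 1.00). Its cho2 medium arrays (-0.43 and -0.67) lay below its wild-type medium arrays (-0.39 and -0.40), by 0.042 within the Cy3 arrays and by 0.27 within the Cy5 arrays. The groups also did not overlap for EPT1, and such separation held for 17% of all probes.

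For the other genes the differences in cho2 medium were smaller. PIS1 differed by -0.076 (SE 0.041), EPT1 by -0.054 (SE 0.061), INO1 by -0.045 (SE 0.12) and PSD1 by -0.035 (SE 0.10). OPI1 differed by -0.032 (SE 0.051) and CPT1 by -0.011 (SE 0.040). On the other side of 0 were ITR1 at 0.041 (SE 0.11), CHO2 at 0.038 (SE 0.059) and CHO1 at 0.011 (SE 0.12). CHO2, the gene that the strain which had used the medium lacked, read 0.026 lower within the Cy3 arrays and 0.10 higher within the Cy5 arrays, and without array 2 of cho2 medium its difference was -0.058. For all 10 genes the 95% interval stayed within 1.7-fold, the fold limit used in the study. For INO1, near background in set 2, the offset pulls the ratios towards 0 and may narrow this interval. The median difference of the 10 genes was -0.034, against -0.00019 for all probes, and 7 of the 10 were below 0, as were 50.2% of all probes. The median stayed below 0 on leaving out each array in turn (-0.036 to -0.027). Its size depended on the processing, at -0.0071 in the deposited log2 table and -0.063 with median centring. Against all 4 wild-type arrays it was -0.089, but that control averages the wild-type media of both sets. The value therefore also holds part of the difference between sets.

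**Figure D2:**
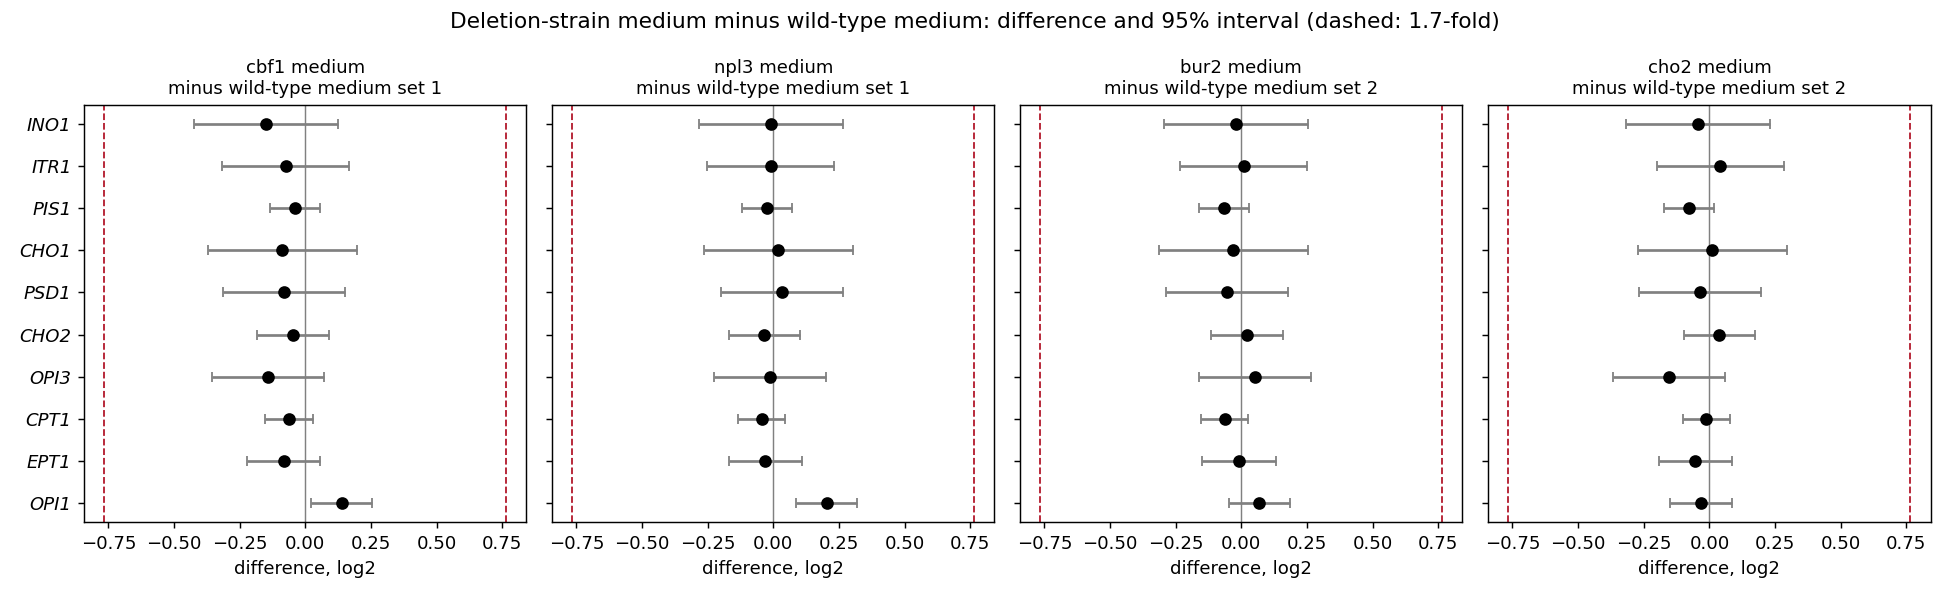
The 4 panels show, for each gene, the log2 difference of a deletion-strain medium minus its wild-type medium (points) with its 95% interval from the limma fit (bars); red dashed lines mark 1.7-fold and the grey line marks 0. All 40 intervals lie inside the dashed lines, and OPI1 in cbf1 medium (0.023 to 0.26) and npl3 medium (0.086 to 0.32) has the intervals that leave out 0 before adjustment over all probes. INO1 was near background in set 2, where the offset may narrow its intervals.

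In cbf1 medium, OPI1 was 0.14 above its wild-type medium (SE 0.051, limma adjusted p = 1.00), and the other 9 genes had differences below 0, as did 49.2% of all probes. None passed an adjusted p of 0.05 (0% of probes), with 1 of the 10 genes and 85 probes (1.33%) at an unadjusted p under 0.05. After OPI1, the smallest p-values belonged to CPT1 (-0.061, SE 0.040), OPI3 (-0.14, SE 0.093) and EPT1 (-0.082, SE 0.061), while INO1 was at -0.15 (SE 0.12). The difference of OPI3 was -0.0089 without array 2 of wild-type medium and -0.27 without array 1, and that of OPI1 was 0.077 without array 2 of cbf1 medium and 0.20 without array 1. The arrays of the 2 media did not overlap for OPI3 and CHO2, as for 10.5% of all probes. The median difference of the 10 genes was -0.078, against 0.00085 for all probes. That median depended on the array: it was 0.017 within the Cy3 arrays and -0.17 within the Cy5 arrays, and without array 2 of wild-type medium, which held the high values of INO1, CHO1, PSD1 and ITR1, it was 0.022. Without array 1 of wild-type medium it was -0.18.

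In npl3 medium, OPI1 had the largest difference of any of the 10 genes from wild-type medium, 0.20 (SE 0.051, 95% interval 0.086 to 0.32). Both npl3 medium arrays (0.46 and 0.50) were above both wild-type medium arrays (0.22 and 0.33), a separation that held for 14.6% of all probes and for OPI1 alone among the 10 genes. Its unadjusted p in limma was 0.0038 and its adjusted p was 1.00, and none of the 10 genes and 0% of the probes passed the adjusted limit (181 probes, or 2.83%, at an unadjusted p under 0.05). CPT1 (-0.044, SE 0.040), CHO2 (-0.034, SE 0.059), PIS1 (-0.023, SE 0.041) and INO1 (-0.0073, SE 0.12) were near 0. For INO1, CHO1, PSD1, ITR1 and OPI3 the arrays of opposite dyes differed in sign. Within the Cy3 arrays these genes were 0.21 to 0.34 higher in npl3 medium, and within the Cy5 arrays 0.23 to 0.32 lower. The sign also differed, with smaller values, for PIS1 (0.026 in Cy3 and -0.072 in Cy5) and EPT1 (0.086 and -0.15). The median of the 10 genes was -0.012 in the fit, 0.22 within the Cy3 arrays and -0.19 within the Cy5 arrays, and it ranged from -0.12 to 0.12 on leaving out 1 array.

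**Figure D3:**
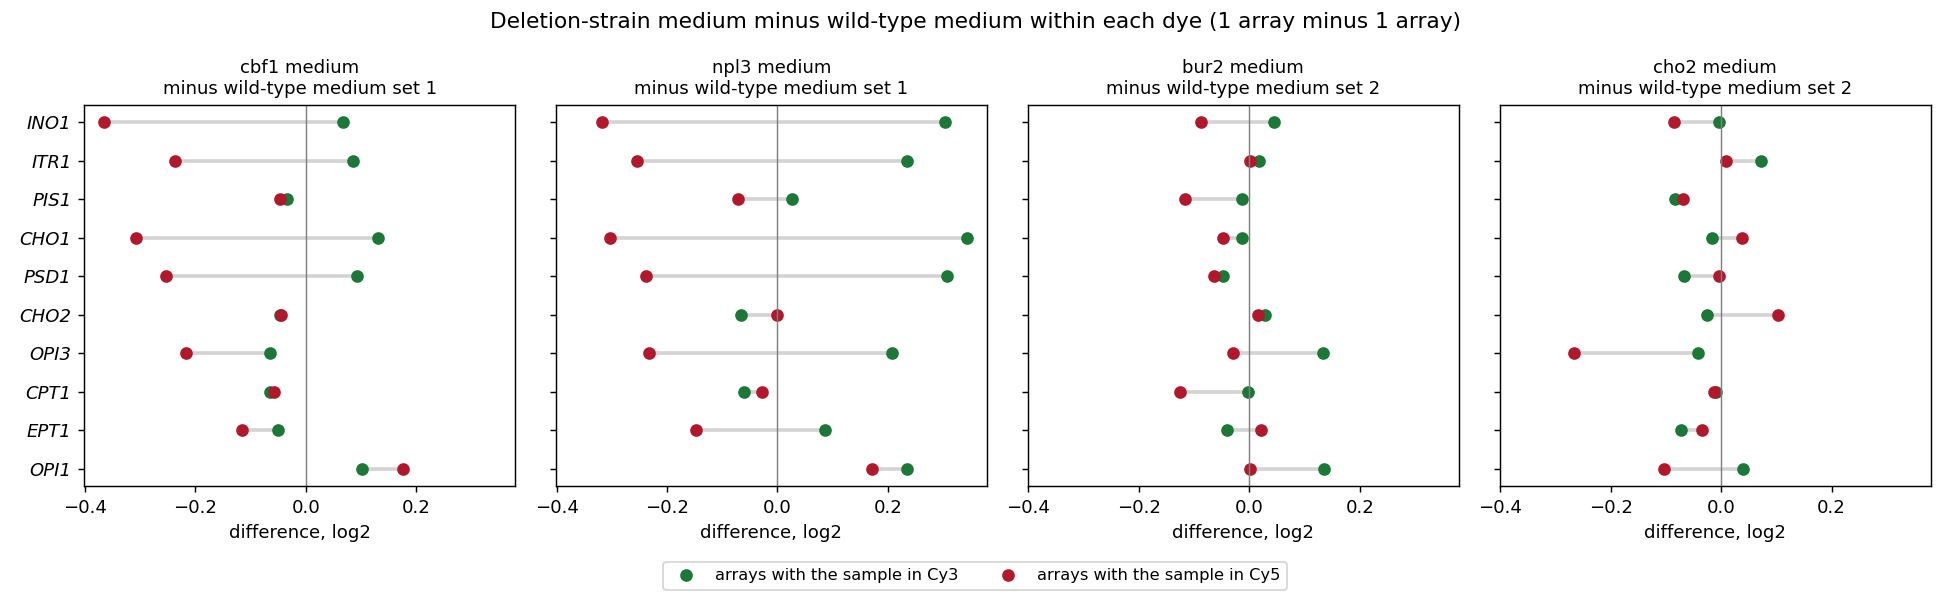
For each gene and each deletion-strain medium, the log2 difference from wild-type medium is drawn within the Cy3 arrays (green, array 1 minus array 1) and within the Cy5 arrays (red, array 2 minus array 2), joined by a grey line. In npl3 medium 3 of the 10 genes kept their sign in both, against 6 in cbf1 medium and 7 each in bur2 and cho2 medium; these counts were not tested.

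In bur2 medium the differences were small, from -0.065 (PIS1, SE 0.041) to 0.068 (OPI1, SE 0.051). CPT1 was at -0.064 (SE 0.040), OPI3 at 0.052 (SE 0.093) and INO1 at -0.021 (SE 0.12). None of the 10 genes and 0% of the probes passed an adjusted p of 0.05 in limma, and 0 of the 10 genes and 242 probes (3.79%) had an unadjusted p under 0.05. No gene of the 10 had separate arrays, whereas 19.1% of all probes did. The median difference was -0.015, against -0.0016 for all probes, and its sign was not stable. It was -0.050 without array 1 of bur2 medium, 0.0076 without array 2 and 0.031 with median centring. Against all 4 wild-type arrays, which average both sets and so bring in part of the difference between sets, it was -0.066. All 10 intervals stayed within 1.7-fold, with the same limit for INO1 as in cho2 medium.

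The 4 comparisons with wild-type medium share control arrays within a set, so the similar values of cbf1 and npl3 medium, or of bur2 and cho2 medium, are not independent. With the 4 deletion-strain media averaged against the wild-type media, OPI1 was at 0.094 (SE 0.031, limma adjusted p = 1.00), PIS1 at -0.051 (SE 0.025), CPT1 at -0.045 (SE 0.024), EPT1 at -0.044 (SE 0.037) and INO1 at -0.056 (SE 0.073). None of the 10 genes and 0% of the probes passed the adjusted limit, and OPI1 alone had an unadjusted p under 0.05, as did 184 probes (2.88%). The median of the 10 genes was -0.039, against -0.00053 for all probes. Without array 2 of the wild-type medium of set 1 this median was 0.024, and without array 1 it was -0.077.

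The deletion-strain media of a set were also compared with each other, which leaves the wild-type arrays out. Between cho2 and bur2 medium, OPI3 was at -0.21, with cho2 medium below bur2 medium (SE 0.093, 95% interval -0.42 to 0.0081, limma adjusted p = 0.61). Within each dye the difference was of similar size, -0.18 in the Cy3 arrays and -0.24 in the Cy5 arrays, although the groups overlapped. OPI1 was at -0.10 (SE 0.051), CPT1 at 0.052 (SE 0.040), EPT1 at -0.045 (SE 0.061) and INO1 at -0.024 (SE 0.12). None of the 10 genes and 0% of the probes passed the adjusted limit, and 0 of the 10 genes and 532 probes (8.33%) had an unadjusted p under 0.05. OPI1 and EPT1 had separate arrays, as did 28.4% of all probes. The median of the 10 genes was 0.0022, against -0.00067 for all probes, and it was -0.10 with median centring and -0.035 to 0.027 on leaving out 1 array.

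Between cbf1 and npl3 medium, the differences of all 10 genes were below 0 (50.5% of all probes were), from -0.14 (INO1, SE 0.12) to -0.012 (CHO2), and their median was -0.064, against -0.00057 for all probes. OPI3 (-0.13, SE 0.093) and OPI1 (-0.064, SE 0.051) had the smallest p-values, followed by INO1 and PSD1 (-0.11, SE 0.10). None passed an adjusted p of 0.05, while 2 probes did (0.0313%), and 0 of the 10 genes and 96 probes (1.5%) had an unadjusted p under 0.05. The arrays were separate for INO1 and PSD1, as for 14.7% of all probes. The median of the 10 genes came from the Cy3 arrays, at -0.14 within them and 0.0014 within the Cy5 arrays, and it was 0.0043 without array 1 of npl3 medium and -0.17 without array 2.

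The 1 call among these genes lay between the sets and not between media within a set. Averaged over 3 media each, the differences of 8 of the 10 genes were below 0, as were 53.7% of all probes, with a median of -0.091 against -0.0048 for all probes. That median was -0.045 without array 1 of npl3 medium, -0.056 without array 2 of the wild-type medium of set 1, and -0.13 without array 2 of npl3 medium. OPI1 was 0.13 lower in set 2 (SE 0.029, limma adjusted p = 0.029) and was the 1 gene of the 10 called. Of all probes, 9.88% were called and 5.28% were called lower, so 1 call in 10 genes was near the share of all probes. OPI1 is described further only because it was the gene called. Its mean was 0.39 in set 1 (0.22 to 0.50) and 0.26 in set 2 (0.18 to 0.31), and the sets overlapped, as they did for each of the 10 genes (3.32% of all probes did not overlap). CHO1 (-0.21, SE 0.072, adjusted p = 0.10), PSD1 (-0.20, SE 0.059, adjusted p = 0.068) and INO1 (-0.17, SE 0.069, adjusted p = 0.16) had larger differences than OPI1 but did not pass. These 4 genes were the ones with an unadjusted p under 0.05, against 1814 probes (28.4%).

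The call of OPI1 depended on single arrays. It was kept without array 1 of cbf1 medium, of cho2 medium or of the wild-type medium of set 1, and lost on leaving out each of the other 9 arrays in turn, with an adjusted p of 0.051 to 0.099 in those 9. Taking only the wild-type arrays of each set, OPI1 differed by -0.032 (limma adjusted p = 0.91). For CHO1, PSD1 and INO1, which had larger differences between sets, the wild-type medium means still differed. They were 0.0033 in set 1 and -0.22 in set 2 for CHO1, 0.0008 and -0.18 for PSD1, and -0.016 and -0.21 for INO1. Between the wild-type media only, 0 of the 10 genes and 0.235% of all probes were called. Within the sets, OPI1 was above wild-type medium by 0.14 and 0.20 in cbf1 and npl3 medium, and by 0.068 and -0.032 in bur2 and cho2 medium. The difference between sets in deletion-strain minus wild-type medium was -0.15 for OPI1 (SE 0.062, limma adjusted p = 1.00), and none of the 10 genes and 0% of the probes passed in that test (54 probes, or 0.845%, at an unadjusted p under 0.05). Whether CHO1, PSD1 and INO1 passed depended on the arrays and on the processing. Without array 1 of the wild-type medium of set 1, 4 of the 10 genes passed, as did 20.2% of all probes, with adjusted p of 0.0018 for CHO1, 0.0043 for PSD1, 0.00399 for INO1 and 0.023 for OPI1, and without array 2 of npl3 medium PSD1 passed at 0.037. With all arrays kept, PSD1 passed without background subtraction (0.045) and in the deposited log2 table (0.045). The shares of all probes called in these settings were 7.86% and 11.3%, in that order. With duplicate spots kept apart PSD1 (0.00058), CHO1 (0.0050) and INO1 (0.012) passed, as did 20.5% of all probes. The sets differ in label style and brightness, which cannot be told apart. They also differ in their deletion-strain media, and the medium is the same in both sets only for the wild-type arrays. The part of brightness in the gap was not tested.

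INO1 and CHO1 varied together over the arrays. Only probes with a gene symbol were ranked (5326 of the 6388). Among them CHO1 had the ratios most like those of INO1, with r = 0.94 over the 12 arrays. PRT1 (0.93), TSR4 (0.93), FOL1 (0.92) and SPE4 (0.92) followed. For CHO1 the nearest were MAK11 (0.97), RPC40 (0.96), POP8 (0.95), INO1 (0.94) and CMS1 (0.93). The arrays share the reference, dyes and sets, so these correlations are descriptions. The rank correlation of INO1 and CHO1 was 0.69, and leaving out the 2 arrays farthest from the median of INO1 gave r = 0.67. Within set 1 it was 0.98 and within set 2 it was -0.21 (6 arrays each), so the likeness rests on set 1, where array 2 of wild-type medium and array 1 of npl3 medium were above 0 for both genes. CHO2 and OPI3, which act one after the other, ran in opposite directions over the arrays (r = -0.60). Their r was -0.42 after the dye term was removed and -0.18 without the 2 farthest arrays. CPT1 and PIS1 had r = 0.91 over the arrays and 0.43 after the dye term was removed.

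**Figure D4:**
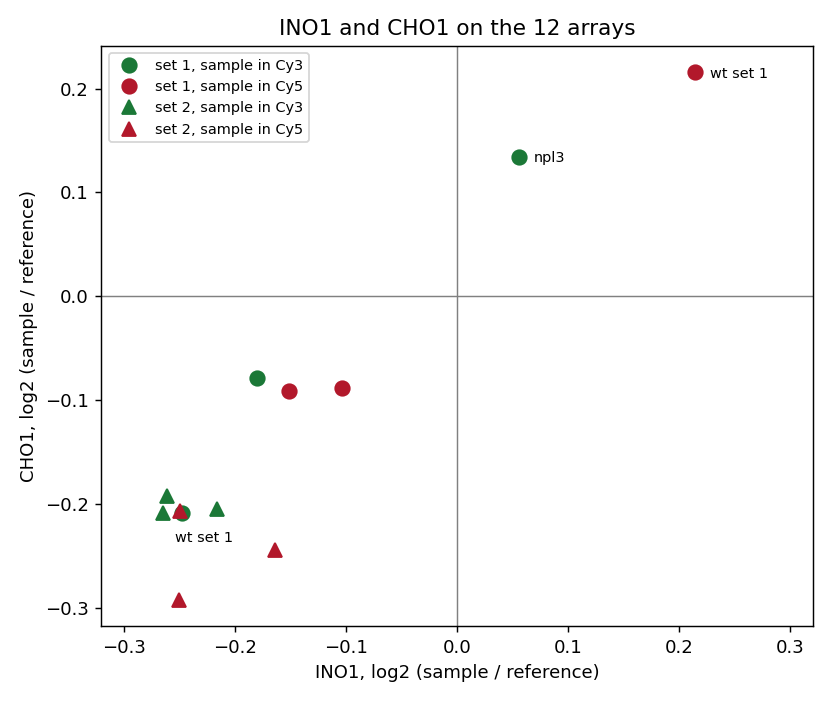
Each point is 1 of the 12 arrays, with log2 of sample over reference for INO1 on the x axis and for CHO1 on the y axis; circles are set 1, triangles set 2, green the sample in Cy3 and red the sample in Cy5. Only array 2 of wild-type medium of set 1 (0.21 and 0.22) and array 1 of npl3 medium (0.056 and 0.13) are above 0 for both genes.

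A further 49 genes of the pathway were measured with 1 probe each, in 5 lists. In each of the 4 deletion-strain media 0 of the 49 passed an adjusted p of 0.05 against wild-type medium, and the median difference was between -0.019 (cbf1 medium) and 0.0076 (cho2 medium). At an unadjusted p under 0.05 there were 0, 1, 2 and 1 of the 49 genes in cbf1, npl3, bur2 and cho2 medium, beside 1.33%, 2.83%, 3.79% and 1.97% of all probes. In cho2 medium the smallest p-values belonged to SCS2 (-0.14, SE 0.057), which anchors Opi1 at the endoplasmic reticulum, ECT1 (0.081, SE 0.036), the enzyme that makes CDP-ethanolamine, listed on the array as MUQ1, and SCT1 (-0.11, SE 0.048), a glycerol-3-phosphate acyltransferase. In bur2 medium they belonged to ECT1 (0.10, SE 0.036), to PAH1 (-0.14, SE 0.050), the phosphatidate phosphatase, and to IRE1 (0.064, SE 0.034), the sensor of the unfolded protein response. ECT1 thus had differences above 0 in both media of set 2, which share the wild-type arrays.

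In npl3 medium the genes with the smallest p-values were GEP4 (0.12, SE 0.049), a phosphatase of cardiolipin synthesis, INM1 (-0.099, SE 0.054), an inositol monophosphatase, and PCT1 (0.090, SE 0.050), the enzyme that makes CDP-choline. In cbf1 medium they were LPP1 (-0.061, SE 0.037), a lipid phosphatase, GIT1 (-0.055, SE 0.033), a transporter of glycerophosphoinositol, and GPT2 (-0.074, SE 0.051), the other glycerol-3-phosphate acyltransferase. The GIT1 probe was near background, with a median signal of 1.29 times background over both channels of the arrays. None of the genes named for npl3 and cbf1 medium reached the adjusted limit.

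Between the sets, 4 of the 49 genes passed in limma, 3 lower in set 2 and 1 higher, beside the 9.88% of all probes that were called. UPS2, which acts in mitochondrial phosphatidylserine transport, was lower in set 2 (-0.22, SE 0.031, limma adjusted p = 0.0051) and kept its call on leaving out each of the 12 arrays in turn. GEP4 (-0.15, SE 0.028, adjusted p = 0.018) and the ethanolamine kinase gene EKI1 (-0.13, SE 0.025, adjusted p = 0.024) were lower, and GPT2 (0.12, SE 0.029, adjusted p = 0.039) was higher. On leaving out 1 array these calls were lost 5, 7 and 10 times of 12, in that order. Taking only the wild-type arrays of each set, UPS2 differed by -0.25, GEP4 by -0.086, EKI1 by -0.13 and GPT2 by 0.10, with adjusted p of 0.24 to 0.64. Against the reference, 10 of the 49 genes were below 0 on all 12 arrays, beside 15.1% of all probes, and 6 were above it, beside 19.2%. The median of their means was -0.037.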

How the data were processed

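RNA of wild-type yeast was measured on 12 spotted 2-colour oligonucleotide arrays in 6 groups of 2. Scanner files deposited by the authors give each spot's mean and local background intensity in both channels, not normalized. The authors also deposited log2 ratios per spot, made with limma 2.12.0 by print-tip loess (span 0.4) from signals that kept their background, and corrected for gene-specific dye bias. These served as an alternative, with the column of array 1 of cho2 medium turned. A deposited table of the authors' own comparisons (log2 ratios and p-values) was not used. No genome build or coordinates are given in the sources used here.

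In limma 3.58.1 (R 4.3.3), intensities were background-corrected by normexp (offset 50), normalized by loess (span 0.3) on the 12776 gene spots, turned to sample over reference by the labelled dyes and averaged over duplicate spots. The 2776 control spots were left out. All 12 arrays were fitted with 6 group means and a dye term (5 residual degrees of freedom, prior 3.29). P-values were two-sided and adjusted by Benjamini-Hochberg across 6388 probes. Precision is limited by the number of arrays: over all probes, differences between media had a median SE of 0.049. For the 10 genes the median SE of a deletion-strain medium minus its wild-type medium was larger, 0.077.

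The genes, the lists and the rule for naming genes were chosen with earlier results of these data known. The rule takes, in each comparison, INO1, every gene of the 10 past the limit and those with the smallest p up to 4 in all, with all 10 in cho2 medium. It also takes called genes among the other 49, or else the 3 with the smallest p. The last items are the 5 probes with a gene symbol most like INO1 and CHO1. The fit was tested on simulated ratios. Deviations of arrays with the same number correlated at 0.31 to 0.82 within a set and 0.32 to 0.66 across sets. As the number is the dye, which the fit already holds, a replicate block in each set was an alternative.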

Additional observations from a re-analysis of the deposited data

How the results depend on the processing

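In 7 of the 8 comparisons 0 of the 10 genes were called under every alternative, including on leaving out each array in turn. Between the sets, 1 gene was called as reported, 2 without background subtraction, 2 in the deposited log2 table, 4 with duplicate spots kept apart, 0 with median centring, 0 without the dye term, 0 between the wild-type media only, and 0 to 4 on leaving out 1 array. With the replicate block in each set the count stayed at 1 and the adjusted p of OPI1 was 0.023; the block changed no call among the 10 genes, while it raised the probes called from 631 to 935. The genes in question were OPI1, PSD1, CHO1 and INO1. Of all probes, 502 (7.86%) were called without background subtraction, 725 (11.3%) in the deposited log2 table and 277 with median centring. The count was 1308 with duplicate spots kept apart, 99 without the dye term, 15 between the wild-type media only and 199 to 1288 on leaving out 1 array. In the comparisons with wild-type medium, where no probe was called as reported, duplicate spots kept apart called up to 45 (bur2 medium), all 4 wild-type arrays as the control up to 57 (bur2 medium), and leaving out array 2 of the wild-type medium of set 1 called 36 in npl3 medium. The control of all 4 wild-type arrays averages both sets, so its calls also draw on the difference between sets. Between cho2 and bur2 medium 46 were called with duplicate spots kept apart, and between cbf1 and npl3 medium 9. With an offset of 10, chosen after seeing the data because INO1 was dim, OPI1 lost its call (adjusted p = 0.051) and PSD1 gained one (0.043). Of the 10 settings other than leaving out an array, the call between sets was kept in 9 for UPS2, 8 for GEP4, 7 for EKI1, 6 for OPI1 and 4 for GPT2.

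Signs turned only for differences that had not passed the test, and the cause was not tested. With median centring, PIS1 was at 0.00399 in bur2 medium, INO1 at 0.043, ITR1 at -0.028, CHO1 at -0.072 and CHO2 at -0.050 in cho2 medium, and INO1 at 0.094 and CPT1 at -0.067 in cho2 minus bur2 medium. With print-tip loess, CHO2 was at -0.0041 and CPT1 at 0.0035 in cho2 medium. In the deposited table, CPT1 was at 0.045 and OPI1 at 0.0017 in cho2 medium, and INO1 at 0.018 in cho2 minus bur2 medium. Against all 4 wild-type arrays, INO1 was at 0.091 in npl3 medium, and ITR1 at -0.037 and CHO1 at -0.10 in cho2 medium. As that control averages both sets, these values also hold part of the difference between sets.

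On leaving out 1 array, INO1 ranged from -0.39 to 0.087, OPI3 from -0.27 to -0.0089 and EPT1 from -0.17 to 0.0083 in cbf1 medium, in each case set by the wild-type arrays of set 1, and OPI1 from 0.077 to 0.20, set by the cbf1 medium arrays. In npl3 medium, INO1 ranged from -0.24 to 0.23, CHO2 from -0.089 to 0.022 and PIS1 from -0.062 to 0.016. In bur2 medium, INO1 ranged from -0.083 to 0.040 and OPI3 from -0.012 to 0.12. In cho2 medium, ITR1 ranged from -0.026 to 0.11, CHO1 from -0.026 to 0.047, CHO2 from -0.058 to 0.13, CPT1 from -0.046 to 0.023 and OPI1 from -0.083 to 0.018, whereas OPI3 stayed below 0, at -0.22 to -0.084. In cbf1 minus npl3 medium, OPI3 ranged from -0.26 to 0.0053 and PSD1 from -0.26 to 0.032, in cho2 minus bur2 medium INO1 from -0.085 to 0.038, and over all deletion-strain media INO1 from -0.17 to 0.062 and EPT1 from -0.089 to 0.0013. With the darkest 25% of probes left out INO1 has no value.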
